A study of Homo sapiens with 12 samples.

Results

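Ribosome assembly and RNA polymerase I are represented by 39 genes among the 17518 genes counted in MUTZ-1 and SKM-1, a pair of human cell lines with NUDT21 knocked down by short hairpin RNA (shRNA). They were taken from the table of read counts by a list of symbols that was drawn up with results of these data in view and names a direction, lower after knockdown in MUTZ-1 and higher in SKM-1. That direction is therefore a description of the list and not an independent finding. The 39 genes fall into 7 steps of the pathway, and all of them passed the filter on low counts, which left 13625 genes.

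The labels describe both lines as marrow cells of myelodysplastic syndrome. Each line gave 3 libraries with the NUDT21 shRNA (genotype shNUDT21, called knockdown here) and 3 with a control shRNA (genotype WT in the labels, called control here), 12 libraries in all. The study asked how loss of NUDT21, the RNA-binding subunit of the 3' end processing factor CFIm, changes gene expression in these cells. The labels do not say that the replicates came from separate cultures, so the p-values cover no more than the variation among these libraries, part or all of which may be technical, and the labels do not give the shRNA sequence or the number of clones. All 6 knockdown libraries carry the tag sh1 in their descriptions, which the labels do not explain.

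Ribosomes are assembled in the nucleolus. RNA polymerase I transcribes the long ribosomal RNA precursor, box C/D and box H/ACA small nucleolar ribonucleoproteins (snoRNPs) guide its methylation and pseudouridylation, and a large particle called the small subunit processome folds and cleaves its first part. Separate sets of factors then complete the small and the large subunit and release them to the cytoplasm. The pathway is known for high activity in proliferating blood cells, and defects of it cause inherited failures of blood formation.

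The regulatory sequences nearest to these genes can be shown for 33 of the 39, for which RefSeq (GRCh38.p14) promoter windows of 300 bases were at hand, from 250 bases before to 50 after a transcription start. Entries were missing for BOP1, DDX18, NOLC1, NOP58, POLR1E and RRP12. The hexamer CACGTG, the palindromic E-box that basic helix-loop-helix proteins such as MYC and USF1 can bind, was searched for on both strands, which for a palindrome are the same letters. It occurred in windows of 14 of the 33 genes (42.4%), against 1367 of the 10975 tested genes with a window (12.5%). The genes with it were WDR43, RRP9, GNL3, NOP14, GAR1, BYSL, LTV1, DDX21, NOP2, UTP20, NOP10, UTP4, FBL and PES1. The 15 sites in these 14 genes began at most 170 bases before and 36 bases after a start, and 9 of them lay after it. The stretches around the sites are shown for the 7 of these genes that are described library by library further on, on the coding strand from 5' to 3', with the hexamer in capitals.
LTV1, chr6:143843354-143843383, plus strand: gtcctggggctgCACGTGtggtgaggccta
DDX21, chr10:68956604-68956633, plus strand: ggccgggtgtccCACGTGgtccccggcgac
UTP4, chr16:69132621-69132650, plus strand: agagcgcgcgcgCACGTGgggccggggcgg
GAR1, chr4:109815781-109815810, plus strand: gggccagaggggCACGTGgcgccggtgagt
NOP10, chr15:34343130-34343159, minus strand: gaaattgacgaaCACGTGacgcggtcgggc
NOP10, chr15:34343289-34343318, minus strand: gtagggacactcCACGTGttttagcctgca
NOP14, chr4:2963374-2963403, minus strand: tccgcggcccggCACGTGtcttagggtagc
FBL, chr19:39846356-39846385, minus strand: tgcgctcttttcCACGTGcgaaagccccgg

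Whole windows are given for LTV1 and NOB1, a pair of late small subunit factors that stood furthest apart in SKM-1, with the largest increase of the 39 genes and the single decrease in fitted value. Relative to the median change of all genes of its chromosome, GAR1 stood highest in SKM-1 at 1.71, above LTV1 at 1.46, and NOB1 stood at 0.06. The E-box of LTV1 is in capitals, and the window of NOB1 holds no such hexamer.
LTV1, chr6:143843088-143843387, plus strand: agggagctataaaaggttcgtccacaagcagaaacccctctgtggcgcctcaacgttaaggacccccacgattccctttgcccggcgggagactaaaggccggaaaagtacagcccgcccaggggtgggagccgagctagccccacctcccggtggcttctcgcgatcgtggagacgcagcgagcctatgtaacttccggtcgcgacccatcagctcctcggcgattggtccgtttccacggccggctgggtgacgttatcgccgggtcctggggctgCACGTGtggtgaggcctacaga
NOB1, chr16:69754877-69755176, minus strand: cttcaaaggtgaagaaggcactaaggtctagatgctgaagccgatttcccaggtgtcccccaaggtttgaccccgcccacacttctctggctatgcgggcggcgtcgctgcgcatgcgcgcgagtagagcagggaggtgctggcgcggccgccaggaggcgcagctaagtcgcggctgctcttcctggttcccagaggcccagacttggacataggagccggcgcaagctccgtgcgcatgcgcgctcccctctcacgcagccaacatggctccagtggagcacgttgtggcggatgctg

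A pair of further motifs was counted in the same windows on both strands. CCGGAA, a core of ETS family sites, was found for 18 of the 33 genes (54.5%) and for 33.4% of all genes with a window. TATAAA was found for LTV1 and UTP20 (6.06%), against 8.98% of all genes with a window. A match describes the letters only.

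NUDT21 itself was at 135, 136 and 142 CPM (counts relative to the scaled library total) in MUTZ-1 knockdown libraries, against 301, 297 and 301 CPM in MUTZ-1 control libraries, which left 46.1%. In SKM-1 it was at 131, 132 and 129 CPM after knockdown, against 322, 336 and 343 CPM in control, which left 39.2%. No knockdown library overlapped a control library. Libraries held 15843012 to 18426619 counts. After knockdown in MUTZ-1, 3324 of all genes tested rose and 3356 fell, a share of rises that became 60.7% when libraries were scaled by their totals alone. In SKM-1 5735 rose and 5765 fell.

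Marker genes of blood lineages and other tissues were checked against the labelled cell type. In MUTZ-1, summed B lineage markers were at 1724 to 1767 CPM in knockdown and 2049 to 2058 CPM in control, summed myeloid markers at 7.79 to 8.96 CPM and 8.94 to 15.0 CPM, and the myeloid genes MPO and FCGR1A at 0 in both groups. In SKM-1, summed erythroid markers were at 3202 to 3383 CPM in knockdown, against 841 to 860.2 CPM in control, and 12 of the 13 rose, against 42.1% of all genes tested. Summed myeloid markers of SKM-1 were at 136 to 146 CPM and 54.9 to 59.9 CPM in these groups, with MPO at 0 after knockdown, and summed epithelial markers at 764 to 789 CPM and 373 to 382 CPM. SKM-1 fibroblast markers were at 14.1 to 17.2 CPM in knockdown and 64.7 to 70.9 CPM in control, and T lineage markers stayed at or below 4.31 CPM in every library. These markers moved with the knockdown in SKM-1, and their part in the results on the ribosome assembly genes was not tested. In such bulk samples, fewer cells of a type and less RNA per cell cannot be told apart.

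After knockdown in MUTZ-1, 36 of the 39 genes fell and 0 rose at an adjusted p under 0.05, from the quasi-likelihood test of edgeR with p-values adjusted over all genes tested by Benjamini and Hochberg's method. Of all genes tested, 24.6% fell and 24.4% rose. The median log2 fold change of the 39 was -0.38, with a range from -0.68 to -0.02, against a median of 0.00 over all genes tested. The 3 genes that did not pass the test were FBL, NOP10 and DDX18. A decrease of at least 0.5 on the log2 scale was reached by 9 of the 39 genes, LTV1, NIP7, UTP20, NOP2, DDX21, NOP16, RRP12, NOB1 and PES1, against 3.63% of all genes tested.

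After knockdown in SKM-1, 38 of the 39 genes rose by the same test and 0 fell, against 42.1% of all genes tested that rose and 42.3% that fell. Their median log2 fold change was 0.57, from -0.06 for NOB1 to 1.81 for LTV1, again against 0.00 over all genes tested. An increase of at least 0.5 was found for 23 of them (27.0% of all genes tested) and of at least 1 for 10 of them (12.6%). Those 10 were LTV1, POLR1C, DDX21, GAR1, UTP4, RRP12, NOP16, NOP58, BYSL and DDX56. The 39 genes are abundant, and among the 6290 genes at or above the mean of the least abundant of them (37.0 CPM) 39.5% fell after knockdown in MUTZ-1, while 54.7% rose in SKM-1.

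Both moves together, lower in MUTZ-1 and higher in SKM-1, passed for 35 of the 39 genes, against 15.0% of all genes tested and 26.0% of the genes of like abundance. The knockdown effect was lower in MUTZ-1 than in SKM-1 for all 39 in a test of the difference itself, against 35.6% of all genes tested and 53.2% of those of like abundance, whereas 36.4% of all genes tested went the other way. The median difference, MUTZ-1 minus SKM-1, was -0.95 on the log2 scale, from -2.49 for LTV1 to -0.34 for FBL, against 0.04 over all genes tested. In both lines, the groups of 37 genes did not overlap in the named directions, against 15.8% of all genes tested.

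**Figure D1:**
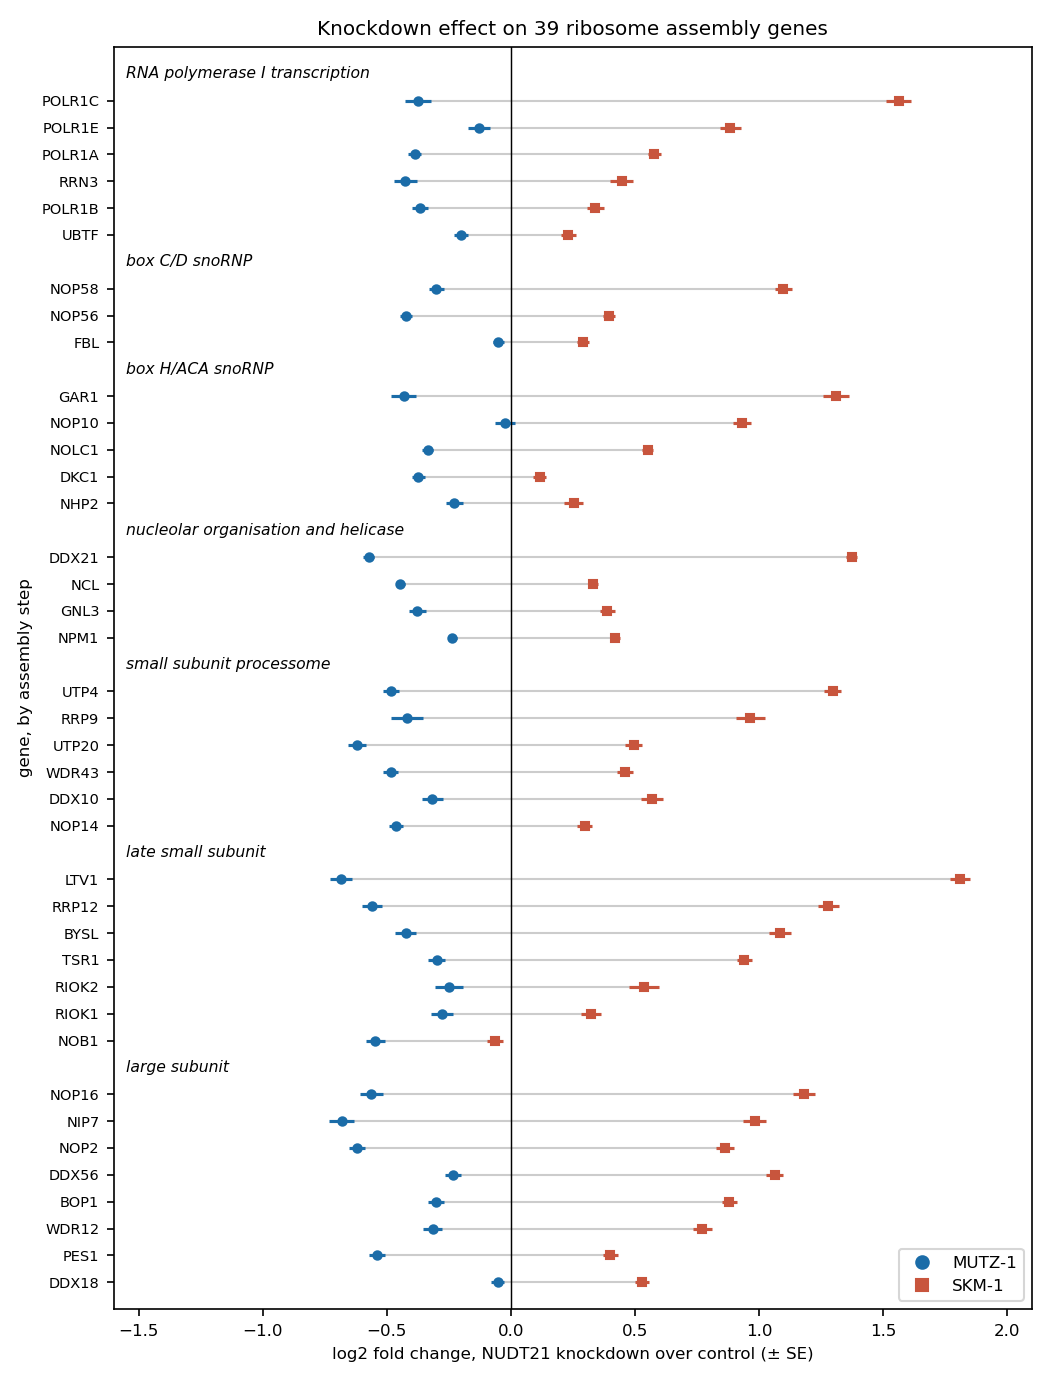
Log2 fold change of NUDT21 knockdown over control with its standard error (x axis) for the 39 genes (rows, by assembly step), in MUTZ-1 (blue circles) and SKM-1 (red squares). The blue points lie between -0.68 and -0.02 and the red points between -0.06 and 1.81, so that each row's pair is split at or near 0, with the widest gap at LTV1.

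The summed level of the 39 genes was 8643 to 8709 CPM in MUTZ-1 knockdown libraries, against 10974 to 11155 CPM in MUTZ-1 control libraries. In SKM-1 the sum was 9888 to 9997 CPM after knockdown, against 6609.9 to 6659 CPM in control. NPM1 and NCL made up a large part of these sums. Without both, the remaining 37 genes summed to 5170.4 to 5199.6 CPM in MUTZ-1 knockdown, against 6649 to 6698 CPM in MUTZ-1 control, and to 6903 to 6967 CPM in SKM-1 knockdown, against 4301 to 4347 CPM in SKM-1 control. MUTZ-1 control libraries thus stood above SKM-1 control libraries, and MUTZ-1 knockdown libraries below SKM-1 knockdown libraries.

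**Figure D2:**
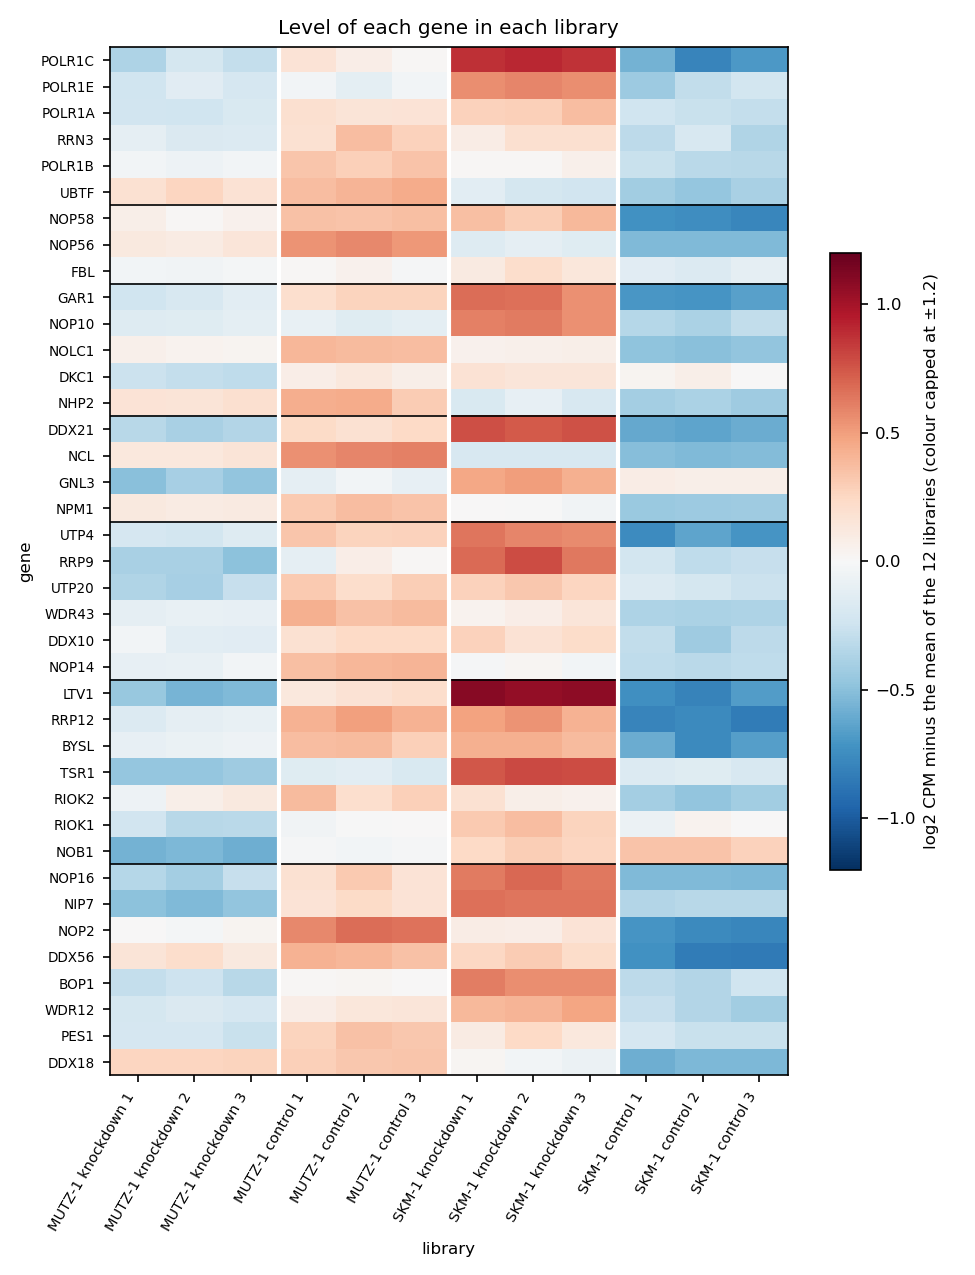
Level of each of the 39 genes (rows, by step) in each of the 12 libraries (columns), as log2 CPM minus the gene's mean over the libraries, with red above and blue below that mean. Replicates of a group look alike, SKM-1 control columns are mostly blue, and NOB1 is the 1 gene that is not higher in the SKM-1 knockdown columns than in the SKM-1 control columns.

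The RNA polymerase I genes, 6 in number, were all lower after knockdown in MUTZ-1 and all higher in SKM-1, with medians of -0.37 and 0.51. Both moves together were called for 15.0% of all genes tested. POLR1C (chr6:43517089-43562407), a subunit shared with RNA polymerase III, was at 40.6, 45.2 and 43.0 CPM in MUTZ-1 knockdown libraries, against 58.7, 55.2 and 52.9 CPM in MUTZ-1 control libraries. In SKM-1 it was at 96.1, 98.2 and 95.6 CPM after knockdown, against 35.4, 30.3 and 32.5 CPM in control. Neither pair of groups overlapped, and SKM-1 knockdown stood above every other library. The log2 fold change was -0.37 ± 0.05 (SE) in MUTZ-1 (adjusted p = 5.08e-11) and 1.56 ± 0.05 in SKM-1 (adjusted p = 4.61e-80), with a difference of -1.94 ± 0.07.

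POLR1A (chr2:86020216-86105886), the largest catalytic subunit of RNA polymerase I, had the highest mean CPM of the step. CPM are not relative to gene length, and per gene length UBTF and POLR1E stood above POLR1A in every group. POLR1A was at 215, 213 and 222 CPM in MUTZ-1 knockdown libraries, against 288, 280.3 and 283 CPM in MUTZ-1 control libraries. SKM-1 libraries had 306, 308 and 325 CPM of POLR1A after knockdown, against 213, 209 and 207 CPM in control. The groups were apart in both lines, and MUTZ-1 knockdown came close to SKM-1 control. The fitted change was -0.39 ± 0.03 in MUTZ-1 (adjusted p = 4.49e-32) and 0.58 ± 0.03 in SKM-1 (adjusted p = 2.06e-55).

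Among the remaining RNA polymerase I genes, POLR1E, a subunit of the dimer that joins the polymerase to its initiation factors, changed by -0.13 ± 0.04 in MUTZ-1 and 0.88 ± 0.04 in SKM-1. Its MUTZ-1 decrease (adjusted p = 0.00973) was not called with libraries scaled by totals alone (adjusted p = 0.121) or by DESeq2 (adjusted p = 0.083). RRN3, the factor that recruits the polymerase to promoters, changed by -0.43 ± 0.05 and 0.45 ± 0.05 in these lines, and its counts are uncertain because near-identical copies exist. POLR1B, the second-largest subunit, changed by -0.37 ± 0.03 in MUTZ-1 and 0.34 ± 0.03 in SKM-1. UBTF, which binds the ribosomal DNA promoter and gene body, changed by -0.20 ± 0.03 in MUTZ-1 and 0.23 ± 0.03 in SKM-1, the smallest SKM-1 change of the step.

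In the box C/D snoRNP, FBL (fibrillarin, the methyltransferase) stood apart from its scaffold partners. NOP58 (chr2:202265763-202303661), 1 of the paired scaffold proteins, was at 154, 148 and 152 CPM in MUTZ-1 knockdown libraries, against 187, 185 and 188 CPM in MUTZ-1 control libraries. In SKM-1 it reached 188, 179 and 192 CPM after knockdown, against 88.4, 87.5 and 85.1 CPM in control. Both pairs of groups were apart, and SKM-1 knockdown reached the level of MUTZ-1 control. Its log2 fold change was -0.30 ± 0.03 in MUTZ-1 (adjusted p = 2.26e-17) and 1.10 ± 0.03 in SKM-1 (adjusted p = 3.98e-83). NOP56, the other scaffold protein, changed by -0.42 ± 0.02 in MUTZ-1 and 0.40 ± 0.02 in SKM-1.

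FBL (chr19:39834458-39846379) was at 388, 387 and 392 CPM in MUTZ-1 knockdown libraries, against 402, 413 and 395 CPM in MUTZ-1 control libraries. SKM-1 libraries had 429, 460.4 and 436 CPM of it after knockdown, against 363, 354 and 368 CPM in control. The MUTZ-1 groups were apart by a narrow margin, and the SKM-1 groups by a wider one. The change of -0.05 ± 0.02 in MUTZ-1 did not pass the test (adjusted p = 0.0632), and the change in SKM-1 was 0.29 ± 0.02 (adjusted p = 1.19e-26). The median change of all genes of chromosome 19 in SKM-1 was 0.31, so that FBL lay at -0.02 relative to it.

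In the box H/ACA snoRNP, GAR1, NOP10, NHP2 and DKC1 form the core and NOLC1 is a chaperone of both snoRNP classes. GAR1 (chr4:109815510-109824737) was at 42.4, 44.0 and 45.8 CPM in MUTZ-1 knockdown libraries, against 57.5, 60.5 and 60.4 CPM in MUTZ-1 control libraries. In SKM-1 it was at 79.6, 79.0 and 73.5 CPM after knockdown, against 30.9, 30.7 and 31.9 CPM in control. SKM-1 held both the highest and the lowest group, and no groups overlapped. The change was -0.43 ± 0.05 in MUTZ-1 (adjusted p = 2.86e-14) and 1.31 ± 0.05 in SKM-1 (adjusted p = 3.79e-65).

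NOP10 (chr15:34341719-34343136), the smallest core protein, was at 83.8, 84.6 and 86.2 CPM in MUTZ-1 knockdown libraries, against 87.8, 84.5 and 86.3 CPM in MUTZ-1 control libraries. After knockdown in SKM-1 NOP10 was at 142, 144 and 137 CPM, against 73.8, 71.6 and 76.3 CPM in control. The MUTZ-1 groups overlapped, and the SKM-1 groups did not. Its change in MUTZ-1 was -0.02 ± 0.04 (adjusted p = 0.679), with a sign that turned under other scalings, and in SKM-1 0.93 ± 0.04 (adjusted p = 1.95e-63).

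NOLC1 (chr10:102152389-102163870) was at 447, 441 and 437 CPM in MUTZ-1 knockdown libraries, against 564, 555 and 553 CPM in MUTZ-1 control libraries. SKM-1 libraries had 442, 447 and 448 CPM after knockdown, against 305, 302 and 307 CPM in control. The knockdown libraries of both lines thus met at one level, from control levels that differed. The change of NOLC1 was -0.34 ± 0.02 in MUTZ-1 (adjusted p = 2.41e-34) and 0.55 ± 0.02 in SKM-1 (adjusted p = 3.59e-61). DKC1, the pseudouridine synthase, changed by -0.37 ± 0.03 in MUTZ-1 and by 0.12 ± 0.03 in SKM-1, where the increase (adjusted p = 1.47e-05) was not called with library totals alone (adjusted p = 0.194) or in the FPKM values (adjusted p = 0.164). The median change of chromosome X genes in SKM-1 was -0.458, and relative to it DKC1 stood at 0.57. NHP2 changed by -0.23 ± 0.03 in MUTZ-1 and 0.25 ± 0.04 in SKM-1.

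The nucleolar group holds the most abundant genes. NPM1 (nucleophosmin, chr5:171387116-171410900), a chaperone that is often mutated in acute myeloid leukaemia, was at 1918, 1899 and 1908 CPM in MUTZ-1 knockdown libraries, against 2208, 2289.5 and 2247 CPM in MUTZ-1 control libraries. In SKM-1 NPM1 was at 1779, 1765 and 1724 CPM after knockdown, against 1302, 1313 and 1321 CPM in control. No groups overlapped, and the lines were nearer to each other after knockdown than in control. Its changes were -0.24 ± 0.02 in MUTZ-1 (adjusted p = 1.97e-28) and 0.42 ± 0.02 in SKM-1 (adjusted p = 1.32e-59), from counts that are uncertain because many pseudogenes of NPM1 exist.

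DDX21 (chr10:68956170-68985068), an RNA helicase that takes part in polymerase I transcription and in precursor processing, was at 415, 401 and 412 CPM in MUTZ-1 knockdown libraries, against 615, 594 and 617 CPM in MUTZ-1 control libraries. In SKM-1 DDX21 was at 894, 871 and 891 CPM after knockdown, against 343, 337 and 346 CPM in control. Every SKM-1 knockdown library was above every other library. The change was -0.57 ± 0.02 in MUTZ-1 (adjusted p = 1.86e-65) and 1.37 ± 0.02 in SKM-1 (adjusted p = 1.69e-135), a 0.672-fold and a 2.59-fold level. NCL (nucleolin, a major RNA-binding protein of the nucleolus) changed by -0.45 ± 0.02 in MUTZ-1 and 0.33 ± 0.02 in SKM-1, and GNL3 (nucleostemin, a nucleolar GTPase) by -0.38 ± 0.03 and 0.39 ± 0.03.

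In the small subunit processome, the test called all 6 genes lower in MUTZ-1 and higher in SKM-1, with medians of -0.47 and 0.53. It called 15.0% of all genes tested so in both lines. UTP4 (chr16:69132649-69169021), a protein of the subcomplex that joins the precursor first, was at 125, 124 and 129 CPM in MUTZ-1 knockdown libraries, against 182, 173 and 174 CPM in MUTZ-1 control libraries. After knockdown in SKM-1 UTP4 was at 225, 216 and 214 CPM, against 85.5, 92.9 and 88.2 CPM in control. The groups of each line were far apart. The change was -0.48 ± 0.03 in MUTZ-1 (adjusted p = 2.56e-33) and 1.30 ± 0.03 in SKM-1 (adjusted p = 7.24e-97).

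NOP14 (chr4:2937936-2963406), which takes part in the early cleavages, was at 162, 163 and 169.9 CPM in MUTZ-1 knockdown libraries, against 223, 229 and 231 CPM in MUTZ-1 control libraries. SKM-1 libraries had 172, 176 and 169.7 CPM of NOP14 after knockdown, against 141, 139 and 141 CPM in control. The groups of each line were apart, and the knockdown groups of the lines overlapped each other. Its change was -0.46 ± 0.03 in MUTZ-1 (adjusted p = 8.84e-36) and 0.30 ± 0.03 in SKM-1 (adjusted p = 3.46e-18).

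The other processome genes split by line. UTP20, a large scaffold protein, had the largest decrease of the step in MUTZ-1 (-0.62 ± 0.04) and an increase of 0.49 ± 0.04 in SKM-1. RRP9, a protein of the snoRNP that guides the early cleavages, changed by -0.42 ± 0.06 in MUTZ-1 and 0.97 ± 0.06 in SKM-1. WDR43, from the same subcomplex as UTP4, changed by -0.48 ± 0.03 in MUTZ-1 and 0.46 ± 0.03 in SKM-1. For DDX10, a helicase, the values were -0.32 ± 0.04 and 0.57 ± 0.04.

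The late small subunit factors held both extremes of the fitted change in SKM-1, taken without regard to chromosome medians. LTV1 (chr6:143843338-143863812), which takes part in export and maturation of the small subunit precursor and is released by phosphorylation, was at 51.6, 48.0 and 49.0 CPM in MUTZ-1 knockdown libraries, against 77.2, 79.8 and 81.7 CPM in MUTZ-1 control libraries. In SKM-1 LTV1 was at 151, 147 and 149 CPM after knockdown, against 42.3, 40.6 and 44.5 CPM in control. The 4 groups did not overlap. The level was 0.622-fold of control in MUTZ-1 (log2 fold change -0.68 ± 0.04, adjusted p = 4.52e-34) and 3.51-fold in SKM-1 (1.81 ± 0.04, adjusted p = 5.82e-104).

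TSR1 (chr17:2322396-2336457), a GTPase-like factor that in yeast blocks early joining of the subunits, was at 89.5, 89.4 and 91.9 CPM in MUTZ-1 knockdown libraries, against 112, 113 and 109 CPM in MUTZ-1 control libraries. In SKM-1 TSR1 was at 207, 214 and 213 CPM after knockdown, against 110.2, 112 and 108 CPM in control. The control groups of the lines overlapped and the knockdown groups stood on either side of them. The change was -0.30 ± 0.04 in MUTZ-1 (adjusted p = 1.48e-13) and 0.94 ± 0.03 in SKM-1 (adjusted p = 1.40e-74).

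NOB1 (chr16:69741871-69754926), the endonuclease that makes the final cut of the small subunit RNA, was the exception in SKM-1. It was at 72.5, 73.6 and 71.3 CPM in MUTZ-1 knockdown libraries, against 106, 105 and 106 CPM in MUTZ-1 control libraries. SKM-1 libraries had 126, 131 and 128 CPM of NOB1 after knockdown, against 136, 136 and 129.5 CPM in control. The MUTZ-1 groups were apart and the SKM-1 groups overlapped. The MUTZ-1 change was -0.55 ± 0.04 (adjusted p = 9.66e-31). The SKM-1 change of -0.06 ± 0.03 did not pass the test (adjusted p = 0.0724). It passed as a decrease with library totals alone (-0.145, adjusted p = 4.32e-05) and in the SKM-1 libraries fitted alone (-0.0879, adjusted p = 0.0116). The same held in 8 of the 12 fits that left out a library. These 8 include every fit without a MUTZ-1 library, which keeps all SKM-1 libraries. Of the fits without an SKM-1 library, only those without control 3 or knockdown 2 called a decrease. Relative to the median change of chromosome 16 in SKM-1 (-0.123), NOB1 stood at 0.06.

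The neighbours of NOB1 did not share its level change in SKM-1. UTP4 and NIP7 (chr16:69339772-69343106) lie within 622 kb of chromosome 16 together with NOB1, and in SKM-1 they changed by 1.30 and 0.98, against -0.06 for NOB1. In MUTZ-1 these neighbours changed by -0.48 and -0.68, against -0.55 for NOB1.

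The other late factors followed LTV1. RRP12, which in yeast takes part in nuclear export, changed by -0.56 ± 0.04 in MUTZ-1 and 1.28 ± 0.04 in SKM-1, and BYSL (bystin), a nuclear factor of small subunit precursors, by -0.42 ± 0.04 and 1.09 ± 0.05. The atypical kinases of the cytoplasmic steps moved less. RIOK1 changed by -0.28 ± 0.04 in MUTZ-1 and 0.32 ± 0.04 in SKM-1, and RIOK2 by -0.25 ± 0.06 and 0.54 ± 0.06. The median change of chromosome 6 genes in SKM-1 was 0.347, and relative to it RIOK1 stood at -0.02, BYSL at 0.74, POLR1C at 1.22 and LTV1 at 1.46.

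Among the 8 large subunit factors, 7 fell after knockdown in MUTZ-1, whereas 8 rose in SKM-1, with medians of -0.43 and 0.87. The shares of all genes tested with these calls were 24.6% for MUTZ-1 and 42.1% for SKM-1. NOP16 (chr5:176383946-176388598), a nucleolar protein of large subunit precursors, was at 52.8, 50.6 and 55.4 CPM in MUTZ-1 knockdown libraries, against 76.1, 83.5 and 75.3 CPM in MUTZ-1 control libraries. In SKM-1 NOP16 was at 103, 108 and 104 CPM after knockdown, against 46.5, 46.5 and 46.1 CPM in control. The groups were apart in both lines. The change was -0.56 ± 0.05 in MUTZ-1 (adjusted p = 2.81e-25) and 1.18 ± 0.04 in SKM-1 (adjusted p = 4.35e-68).

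DDX18 (chr2:117814691-117832377), a helicase, was at 273, 273 and 275 CPM in MUTZ-1 knockdown libraries, against 279, 286 and 288 CPM in MUTZ-1 control libraries. SKM-1 libraries had 232, 223 and 218 CPM of DDX18 after knockdown, against 152, 157 and 157 CPM in control. The MUTZ-1 groups were narrowly apart, and DDX18 stayed higher in MUTZ-1 than in SKM-1 in every condition. Its change was -0.05 ± 0.03 in MUTZ-1, which did not pass the test (adjusted p = 0.0765), and 0.53 ± 0.03 in SKM-1 (adjusted p = 1.64e-45).

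PES1, BOP1 and WDR12 form the PeBoW complex, which is needed for processing of the large subunit RNA. PES1 changed by -0.54 ± 0.03 in MUTZ-1 and 0.40 ± 0.03 in SKM-1, BOP1 by -0.30 ± 0.03 and 0.88 ± 0.03, and WDR12 by -0.32 ± 0.04 and 0.77 ± 0.04. NOP2, a methyltransferase of the large subunit RNA, changed by -0.62 ± 0.03 in MUTZ-1 and 0.86 ± 0.04 in SKM-1. NIP7, which in yeast binds large subunit precursors, changed by -0.68 ± 0.05 in MUTZ-1 and 0.98 ± 0.05 in SKM-1. For DDX56, a helicase, the values were -0.23 ± 0.03 and 1.06 ± 0.04.

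Across the 39 genes, effects from separate libraries of the lines had a Pearson correlation of -0.28 and a Spearman correlation of -0.28, given as a description, and across all genes tested of -0.10 and -0.19. The steps differed more in SKM-1, where medians ran from 0.40 for box C/D and for the nucleolar group to 0.94 for the late small subunit, than in MUTZ-1, where they ran from -0.47 for the small subunit processome to -0.30 for box C/D. These step medians are not relative to chromosome medians. In SKM-1 those were 0.347 for chromosome 6 (LTV1, BYSL, RIOK1) and 0.315 for chromosome 19 (FBL). For chromosomes 20 (NOP56) and 2 (NOP58) they were -0.222 and -0.233. Their part in the differences between steps was not tested. The 14 genes with an E-box in a window had a median effect of -0.47 in MUTZ-1 and 0.90 in SKM-1, and the 19 without one had -0.37 and 0.45. For CCGGAA, the 18 genes with a match had medians of -0.42 in MUTZ-1 and 0.97 in SKM-1, and the 15 without one had -0.38 and 0.40, so that a split of this kind in SKM-1 was seen with both motifs. These are descriptions, and the gene sets overlap.

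**Figure D3:**
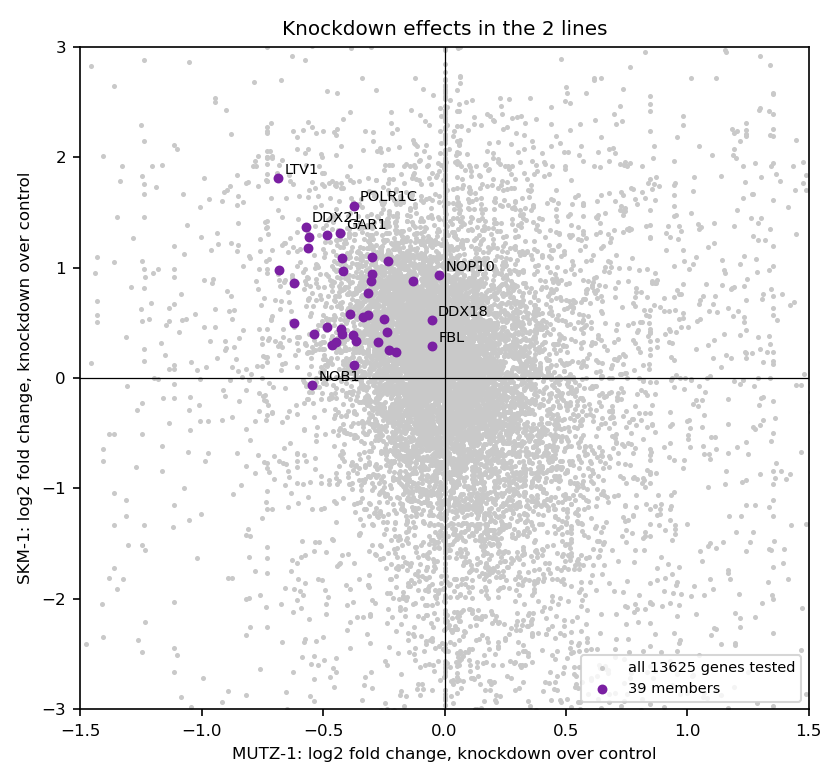
Log2 fold change after knockdown in MUTZ-1 (x axis) against that in SKM-1 (y axis) for all 13625 genes tested (grey) and the 39 genes (purple); 2094 genes lie outside the axes. All purple points lie left of 0 and all but NOB1 lie above 0, with LTV1 at -0.68 and 1.81 and NOP10, FBL and DDX18 near the vertical line.

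Levels per gene length, as FPKM (fragments relative to gene length and library total), allow subunits to be compared. The median FPKM of the 39 genes was 42.0 in MUTZ-1 knockdown and 57.4 in MUTZ-1 control, and 57.2 in SKM-1 knockdown and 32.8 in SKM-1 control. NPM1 had the highest FPKM in every group (873, 995, 807 and 638 in that order) and RIOK2 the lowest (8.82, 10.1, 9.23 and 6.73).

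The balance of GAR1 and DKC1 within the box H/ACA core moved more in SKM-1 than in MUTZ-1. The FPKM of GAR1 over that of DKC1 was 0.492 ± 0.0266 in MUTZ-1 knockdown and 0.513 ± 0.0165 in MUTZ-1 control (SD, n = 3 each), which overlapped. In SKM-1 this ratio was 0.639 ± 0.0250 after knockdown and 0.280 ± 0.0118 in control (SD, n = 3 each), with no overlap. The core was not unchanged in MUTZ-1, where the share of NOP10 in its summed FPKM was 35.9% in knockdown and 31.6% in control. In SKM-1 that share was 46.0% in knockdown and 36.7% in control. For box C/D, NOP58 over FBL was 0.217 ± 0.00420 in MUTZ-1 knockdown and 0.258 ± 0.00785 in MUTZ-1 control, and 0.235 ± 0.0159 in SKM-1 knockdown and 0.134 ± 0.00459 in SKM-1 control. NOP58 over NOP56 went the other way in MUTZ-1, at 0.377 ± 0.00768 in knockdown and 0.346 ± 0.00985 in control, and was 0.554 ± 0.0275 in SKM-1 knockdown and 0.341 ± 0.00672 in SKM-1 control. The FPKM of BOP1 over that of PES1 was higher after knockdown in both lines, at 1.73 ± 0.0236 in MUTZ-1 knockdown and 1.47 ± 0.0420 in MUTZ-1 control, and 2.44 ± 0.165 in SKM-1 knockdown and 1.74 ± 0.0785 in SKM-1 control. No test was run on these ratios and shares.

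**Figure D4:**
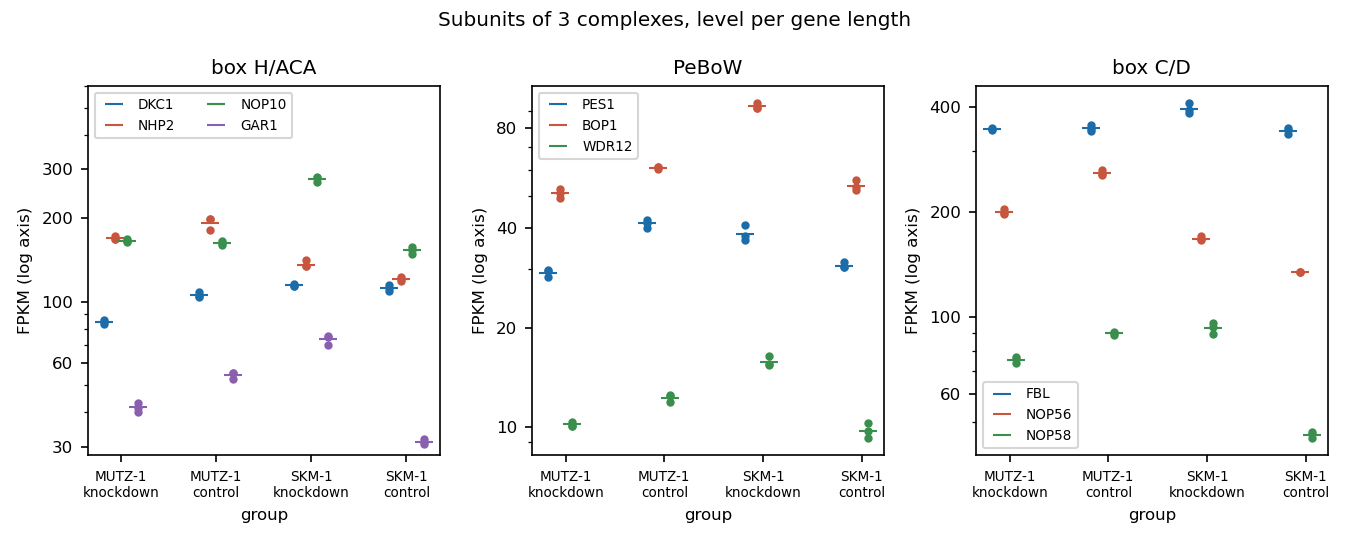
FPKM (log axis) of subunits of the box H/ACA core, the PeBoW complex and the box C/D core in the 4 groups; points are libraries and short lines are means of 3. GAR1 and NOP58 show their lowest level in SKM-1 control, whereas FBL stays between 336 and 412 FPKM in all libraries.

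The lines were also compared directly at each state, in comparisons that share libraries with the knockdown effects, so values are only set side by side. In control cells 35 of the 39 genes were higher in MUTZ-1 than in SKM-1, against 41.4% of all genes tested, with a median log2 difference of 0.73. GNL3 (-0.16 ± 0.03) and NOB1 (-0.34 ± 0.03) were lower, as were 48.8% of all genes tested, and RIOK1 (-0.01 ± 0.04) and TSR1 (0.01 ± 0.03) did not pass the test. With library totals alone, RIOK1 (-0.149, adjusted p = 0.000595) and TSR1 (-0.123, adjusted p = 0.00054) passed as lower in MUTZ-1. Of the genes higher in MUTZ-1, the largest values were those of NOP2 at 1.38 ± 0.03, RRP12 at 1.24 ± 0.04 and DDX56 at 1.19 ± 0.03. These are not relative to chromosome medians, which between control lines ran from -0.925 for chromosome X (DKC1) to 0.635 for chromosome 7 (DDX56). Relative to them, NOP2 stood at 1.60, NCL at 1.39, RRP12 at 1.30, DKC1 at 0.98 and DDX56 at 0.56. The 35 include DKC1, at 0.05 ± 0.03 with overlapping groups (adjusted p = 0.0444), whose sign turned with DESeq2's scaling and with library totals alone and whose call was lost in 10 of the 12 fits that left out a library.

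In knockdown cells 31 of the 39 genes were lower in MUTZ-1 than in SKM-1, against 46.6% of all genes tested, with a median of -0.49. The largest were LTV1 at -1.59 ± 0.04, TSR1 at -1.23 ± 0.03 and POLR1C at -1.17 ± 0.05. UBTF, NOP56, NHP2, NCL, NPM1 and DDX18 were still higher in MUTZ-1, by 0.40, 0.26, 0.32, 0.33, 0.12 and 0.29, as were 41.4% of all genes tested, and NOLC1 and RIOK2 did not pass the test. A gene both higher in MUTZ-1 control and lower in MUTZ-1 knockdown, each against SKM-1, was found 27 times among the 39, against 9.15% of all genes tested.

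Other genes of the pathway were counted from lists chosen by function, with earlier results of these data known. Their counts are therefore not an independent test of the pattern. They are given beside the same shares of all genes tested, 24.6% lower in MUTZ-1 and 42.1% higher in SKM-1. Of 37 other small subunit processome genes, 36 fell and 0 rose in MUTZ-1, and 33 rose and 3 fell in SKM-1, with medians of -0.40 and 0.82. Of 49 other large subunit factors, 43 fell and 1 rose in MUTZ-1, and 44 rose and 3 fell in SKM-1, with medians of -0.28 and 0.75. Of 7 other late small subunit factors, all fell in MUTZ-1, whereas in SKM-1 6 rose and 0 fell. Of 10 snoRNP partners, 6 fell and 1 rose in MUTZ-1, and 8 rose and 1 fell in SKM-1.

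Within their lists, PWP2, NOL6, PAK1IP1 and PNO1 were among the 2 genes with the most negative difference between the lines. PWP2, a processome protein, was at 16.3 ± 2.20 CPM in MUTZ-1 knockdown and 20.4 ± 0.419 CPM in MUTZ-1 control, and at 31.7 ± 2.82 CPM in SKM-1 knockdown and 6.73 ± 0.892 CPM in SKM-1 control (SD, n = 3 each). NOL6, another one, changed by -0.73 ± 0.04 in MUTZ-1 and 1.36 ± 0.04 in SKM-1, and PAK1IP1, a large subunit factor, by -0.42 ± 0.05 and 1.73 ± 0.05. The widest move the other way among large subunit factors was that of NOP53, at 0.37 ± 0.03 in MUTZ-1 and -0.09 ± 0.03 in SKM-1. PNO1, the partner of NOB1 on small subunit precursors, changed by -0.77 ± 0.05 in MUTZ-1 and 0.99 ± 0.05 in SKM-1.

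The polymerase and exosome lists were also chosen with earlier results of these data known. Their counts can be read against 24.6% of all genes tested that fell in MUTZ-1 and 42.1% that rose in SKM-1. Of 10 other genes of the RNA polymerase I machinery, 8 fell in MUTZ-1, whereas in SKM-1 4 rose and 1 fell, with medians of -0.20 and 0.04. POLR1G, a subunit of RNA polymerase I, changed by -0.44 ± 0.05 and 1.21 ± 0.06. POLR1D, a subunit shared with RNA polymerase III, changed by -0.03 ± 0.04 in MUTZ-1 and -1.14 ± 0.04 in SKM-1. For the subunits shared by all polymerases, 4 of 5 fell in MUTZ-1, whereas in SKM-1 4 rose and 1 fell, with medians of -0.19 and 0.45. Of 11 RNA polymerase III subunits, 7 fell and 1 rose in MUTZ-1, and 8 rose and 2 fell in SKM-1, among them POLR3G at 1.48 ± 0.06, with medians of -0.18 and 0.60. Of 7 RNA polymerase II subunits, 4 fell in MUTZ-1 and 5 rose and 2 fell in SKM-1, with medians of -0.12 and 0.19. In the exosome list of 16 genes, which trim ribosomal RNA ends, 8 fell in MUTZ-1 and 10 rose and 3 fell in SKM-1, from EXOSC3 at 1.26 ± 0.05 to DIS3 at -1.27 ± 0.03, and the medians were -0.13 and 0.29.

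**Figure D5:**
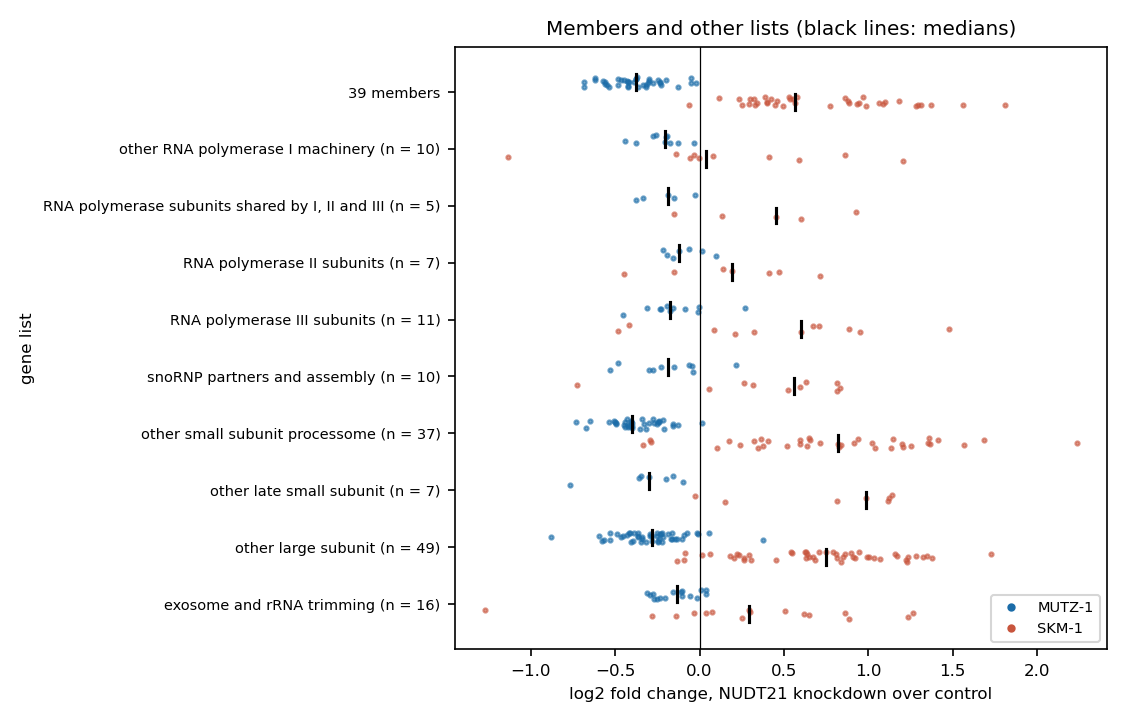
Log2 fold change after knockdown (x axis) of the 39 genes and of 9 other lists (rows; n is the number of genes), with 1 point a gene, MUTZ-1 in blue and SKM-1 in red, and black lines at the medians. Small and large subunit lists lie apart in the lines like the 39 genes, while other RNA polymerase I genes have medians of -0.20 and 0.04.

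POLR1D and DIS3 both lie on chromosome 13, where the median change of the 231 genes tested in SKM-1 was -1.09. NUFIP1, of the snoRNP partners, and EXOSC8, of the exosome list, also lie there, and changed by -0.72 and 0.07 in SKM-1. Medians of the other chromosomes in SKM-1 ran up to 0.469, for chromosome 21, which carries PWP2. None of the 39 genes lies on chromosome 13. Relative to the median of their own chromosome, 37 of the 39 stood higher in SKM-1, against 50.0% of the 13421 genes with a chromosome, and 39 stood lower in MUTZ-1, against 49.2%. The exceptions in SKM-1 were FBL and RIOK1. Whether SKM-1 knockdown and control cells also differ as subclones cannot be told apart from the knockdown.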

How the data were processed

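RNA sequencing libraries had been made with a stranded mRNA kit, per the labels' protocols. The authors deposited read counts per gene, and per the submitters' processing notes used fastp, HISAT2, HTSeq and GRCh38. The sources used here do not give the annotation, the strand setting or how multiply mapped reads were handled. Counts of genes with pseudogenes or near copies (RRN3, NPM1, NOP56, NHP2, NCL, DDX10, DDX18, LTV1, PES1, NIP7) or with a gene on the opposite strand (POLR1C, RRN3, NHP2, GNL3, RIOK1, TSR1, NOP16, WDR12, BOP1, PES1, NIP7) are therefore uncertain. The authors also deposited FPKM values, used here for levels per length and for an alternative.

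The counts were analysed with edgeR 4.0.16 in R 4.3.3. The filterByExpr filter kept 13625 of 17518 genes, TMM factors ran from 0.959 to 1.06, and a robust quasi-likelihood fit of 12 libraries in 4 groups left 8 residual degrees of freedom, with a biological coefficient of variation of 2.44%. Contrasts were the knockdown effect in each line, their difference, and MUTZ-1 against SKM-1 in control and in knockdown cells. P-values were adjusted by Benjamini-Hochberg over all genes tested, and called under 0.05. CPM are relative to TMM-scaled totals. SE is the log2 fold change over the root of F. Replicate libraries varied beyond sampling noise (chi-square per degree of freedom 1.66 to 2.25). The procedure was tested on simulated data with few changed genes, balanced up and down, in the MUTZ-1 knockdown group alone. That test does not cover the scaling of libraries under changes as wide as those seen here.

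Members and lists were chosen with earlier results of these data known. Values per library are given, for each step, for the gene with the largest difference between lines, the one with the highest mean CPM, and every gene not called lower in MUTZ-1 or not called higher in SKM-1. Of each other list, the genes named are from the most negative and most positive pair, except EXOSC8, which is named for its place on chromosome 13. Coordinates and promoters are RefSeq, GRCh38.p14, and 98.5% of genes tested had a chromosome there. Alternatives were library totals, DESeq2 1.42.0, no filter, a mean of at least 5 CPM, limma 3.58.1 on log2(FPKM + 1) and log2(FPKM + 0.1), each line alone, a replicate block, a fold minimum of 0.5 log2, the chromosome median and each library left out.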

Additional observations from a re-analysis of the deposited data

Results flagged for a closer look

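The knockdown effect differed between the lines for each of the 39 genes in edgeR's test of the difference itself, as 35.6% of all genes tested did in this direction. The list names this direction and was drawn up with results of these data in view. The count of 39 therefore describes the list and is not an independent finding. The differences, MUTZ-1 minus SKM-1 on the log2 scale, follow by step.

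For RNA polymerase I, the difference was -1.94 for POLR1C, -1.01 for POLR1E, -0.97 for POLR1A, -0.87 for RRN3, -0.71 for POLR1B and -0.43 for UBTF. In box C/D it was -1.40 for NOP58, -0.82 for NOP56 and -0.34 for FBL. In box H/ACA it was -1.74 for GAR1, -0.95 for NOP10, -0.89 for NOLC1, -0.49 for DKC1 and -0.48 for NHP2. The nucleolar genes had -1.95 for DDX21, -0.78 for NCL, -0.76 for GNL3 and -0.66 for NPM1.

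In the small subunit processome the difference was -1.78 for UTP4, -1.38 for RRP9, -1.11 for UTP20, -0.94 for WDR43, -0.88 for DDX10 and -0.76 for NOP14. Late small subunit factors had -2.49 for LTV1, -1.84 for RRP12, -1.51 for BYSL, -1.24 for TSR1, -0.78 for RIOK2, -0.60 for RIOK1 and -0.48 for NOB1. Large subunit factors had -1.74 for NOP16, -1.67 for NIP7, -1.48 for NOP2, -1.30 for DDX56, -1.18 for BOP1, -1.09 for WDR12, -0.94 for PES1 and -0.58 for DDX18.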

How the results depend on the processing

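Leaving out each library in turn gave 35 to 36 genes lower in MUTZ-1, 38 higher in SKM-1, 34 to 35 with both moves, 39 with a lower effect in MUTZ-1, 34 to 35 higher in control MUTZ-1 and 29 to 31 lower in knockdown MUTZ-1 than in SKM-1, with 2636 to 3395 of all genes lower in MUTZ-1 and 5505 to 5685 higher in SKM-1. Requiring a log2 fold change of at least 0.5 as well left 9, 23 and 6 genes for lower in MUTZ-1, higher in SKM-1 and both, 19 lower in knockdown MUTZ-1, and 494 and 3678 of all genes. That setting removes small changes by construction. Under the other alternatives these counts of the 39 genes ran from 35 to 36, 37 to 38, 33 to 35, 39, 32 to 35 and 31 to 32.

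Same-numbered replicates did not vary together (correlations from -0.0283 to 0.0175), and the replicate block gave 36, 38 and 35 genes for lower in MUTZ-1, higher in SKM-1 and both, so it changed none of these counts.

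Scaling by library totals moved the median of all genes by 0.13 in the difference and -0.14 between control lines. Apart from the chromosome median, signs turned for 4 genes, each with a value near 0 in the main fit. Between control lines, edgeR's test with library totals called DKC1 (adjusted p = 0.00171), TSR1 (adjusted p = 0.00054) and RIOK1 (adjusted p = 0.000595) lower in MUTZ-1. NOP10 in MUTZ-1 was 0.025 with library totals, 0.0252 and 0.0254 in limma on log2(FPKM + 1) and log2(FPKM + 0.1), and -0.023 to 0.0148 over the leave-one-out fits, of which 6 gave a positive value. Between control lines, DKC1 was -0.0827 with totals, -0.00997 with DESeq2, -0.0814 and -0.0821 in the FPKM fits and -0.00993 (without MUTZ-1 control 2) to 0.0712 in leave-one-out fits. TSR1 was -0.123 with totals, -0.0384 with a mean of at least 5 CPM, -0.0505 with DESeq2, -0.118 and -0.122 in the FPKM fits and -0.0448 to 0.0256 in leave-one-out fits, and RIOK1 ran from -0.0795 to 0.0119 (without SKM-1 control 2). Relative to the chromosome median, FBL was -0.0242 (against 0.29 without that step) and RIOK1 -0.0235 (against 0.324) in SKM-1, GNL3 0.139 between control lines (against -0.158) and DKC1 0.0355 between knockdown lines (against -0.436). NOB1 in SKM-1, not called in the main fit, was 0.0589 (against -0.0639). The cause of these turns was not tested.

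In the test of the difference, 0 of the 39 genes changed call or direction in 19 settings (a fold minimum and the chromosome median aside). The MUTZ-1 decrease of POLR1E was also lost without MUTZ-1 control 1 or 3 or knockdown 1 or 3 (adjusted p up to 0.201), and NOB1 in SKM-1 had an adjusted p from 0.0113 to 0.21, called lower in 8 of 12 leave-one-out fits. Those 8 include every fit without a MUTZ-1 library, which keeps all SKM-1 libraries. Between lines, calls or directions changed in some settings for FBL, DKC1, RRP9, RIOK1 and TSR1 in control cells and for POLR1B, NOLC1 and NOP14 in knockdown cells. The least abundant of the 39 genes averaged 37.0 CPM, and SE in the knockdown effects were 0.06 for RRP9 and RIOK2, of low level, and 0.02 for NPM1 and NCL, of high level. Whether more reads or more libraries would narrow them was not tested.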
